A study of Homo sapiens with 14 samples.

Results

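Expression of the bone morphogenetic protein ligand gene BMP4, the homeobox gene MSX1 and 7 further genes known as targets of BMP-activated SMAD proteins was examined in a human colorectal carcinoma cell line treated with Nutlin, with 5-Ph-IAA or with both. The 9 genes are BMP4, MSX1, MSX2, ID1, ID2, ID3, SMAD6, SMAD7 and BAMBI, out of 78686 gene identifiers in each deposited table, of which 61463 could be paired with a symbol. BMP4 and MSX1 were chosen because they were lower with Nutlin in these libraries, and the other 7 because textbook knowledge places them downstream of BMP ligands. All 9 were named with earlier results of these data known. The values of BMP4 and MSX1 under Nutlin are therefore given as a description with no test, and so are their values in other comparisons that reuse the libraries set against Nutlin in that choice. The tests concern the other 7 genes, and all 9 in the time-course set, which the choice of BMP4 and MSX1 did not use. All 9 genes passed the filter on low counts in every comparison.

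The libraries are bulk total-RNA sequencing of HCT116 cells, an established line that grows as an epithelium and carries wild-type p53. Every group, vehicle included, carries osTIR1(F74G) and SAF-A fused to mAID and Halo, so no group has untagged SAF-A. SAF-A, encoded by HNRNPU, is a nuclear RNA-binding scaffold protein, mAID is a degron tag, and 5-Ph-IAA is the ligand with which the osTIR1 variant recruits tagged protein for degradation. Nutlin blocks the binding of MDM2 to p53 and so stabilises p53. In the Nutlin set the 4 groups were 5-Ph-IAA with Nutlin (the combination), 5-Ph-IAA, Nutlin and the vehicle DMSO, and the labels give 3 h for the 3 treated groups without saying which agent the time refers to. The time-course set has a DMSO group and cells given 5-Ph-IAA for 3 h or 12 h. Each group has 2 libraries, 14 in all. The labels give neither the Nutlin dose nor whether the line is 1 clone, and they do not say that replicates came from separate cultures, so the p-values measure the spread between these libraries, which may be technical.

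BMP ligands bind heteromeric receptors with serine/threonine kinase activity, which phosphorylate SMAD1, SMAD5 and SMAD9, and these enter the nucleus with SMAD4 and switch on target genes. The ID genes encode helix-loop-helix proteins without a DNA-binding region and are classical early targets of the pathway. SMAD6, SMAD7 and BAMBI are targets that feed back as inhibitors. In the intestine, BMP signalling is known for restraining crypt stem cells and favouring differentiation.

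The total expected count per library was 12646787 to 17233327 in the Nutlin set and 29578916 to 35140464 in 5 libraries of the time-course set, but 3535163 in replicate 2 of 12 h 5-Ph-IAA. The 2 Nutlin libraries differed more than any other replicate pair, with a chi-square of 22.2 per degree of freedom over genes, against 3.28 to 14.8 in the other 6 groups. CDKN1A, a p53 target, had 467 and 427 CPM (counts scaled to library size) in the combination libraries against 205 and 205 in 5-Ph-IAA libraries, and 537 and 519 in Nutlin libraries against 200 and 197 in vehicle libraries. MDM2, also a p53 target, had 394 and 382 CPM in the combination against 260 and 261 in 5-Ph-IAA, and 348 and 411 in Nutlin against 246 and 276 in vehicle. The treated groups thus lay apart from their references for both check genes. 5-Ph-IAA acts on the SAF-A protein, so HNRNPU RNA does not check that label, and it stood at 505 to 671 CPM over all 14 libraries. Of 10 epithelial and colon markers, 6 reached 1 TPM (counts scaled to transcript length and library size) in some library, with EPCAM at 125 to 163 TPM, while CDX1 and CEACAM5 were at 0 in every library. Fibroblast markers summed to 0.46 to 2.51 TPM, leukocyte markers to 0 to 5.01 TPM, nearly all of it CD68, endothelial markers to 0.01 to 0.4 TPM and neural markers to 0 to 0.89 TPM.

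The upstream windows below are shown because they belong to the pair of genes chosen for their lower level with Nutlin and to ID1, whose estimate with Nutlin alone lay on the other side of 0. The sequences are RefSeq's on GRCh38.p14, from 250 to 11 bases before the annotated start, 5′ to 3′ on the gene's strand. Capitals mark the motif GGCGCC, which BMP-activated SMADs are known to bind, the SMAD box CAGAC (or GTCTG when it lies on the other strand), and the common promoter element CCAAT (or ATTGG when reversed). Both strands were searched, and no motif overlaps another in these windows.
BMP4 (first of 3 listed starts, chr14:53955061-53955300, minus strand): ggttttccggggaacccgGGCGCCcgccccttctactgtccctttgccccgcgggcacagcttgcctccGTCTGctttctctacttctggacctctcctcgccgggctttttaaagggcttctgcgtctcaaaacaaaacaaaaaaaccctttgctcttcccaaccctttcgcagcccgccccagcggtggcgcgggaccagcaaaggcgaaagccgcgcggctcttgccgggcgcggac
MSX1 (chr4:4859415-4859654, plus strand): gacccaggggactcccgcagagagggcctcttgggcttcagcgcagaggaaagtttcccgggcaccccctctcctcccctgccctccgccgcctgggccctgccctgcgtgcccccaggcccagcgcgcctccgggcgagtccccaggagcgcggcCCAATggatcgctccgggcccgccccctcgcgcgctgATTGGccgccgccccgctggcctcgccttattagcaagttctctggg
ID1 (chr20:31605039-31605278, plus strand): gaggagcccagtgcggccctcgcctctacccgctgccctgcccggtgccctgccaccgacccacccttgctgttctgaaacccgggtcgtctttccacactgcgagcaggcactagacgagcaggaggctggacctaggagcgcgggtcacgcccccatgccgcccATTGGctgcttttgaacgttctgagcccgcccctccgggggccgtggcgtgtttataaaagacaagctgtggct

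The BMP4 window held GGCGCC and CAGAC once each and no CCAAT. All 3 BMP4 windows lie inside the gene's range of chr14:53949736-53956891, so they precede internal starts. The MSX1 and ID1 windows end just before their genes' ranges. The MSX1 window held CCAAT 2 times and neither of the other motifs, and the ID1 window held CCAAT once. All 9 genes matched, with 13 windows in all because BMP4 and SMAD7 have 3 listed starts each. GGCGCC was in 2 of these 13 windows (BMP4 and BAMBI), against 15.5% of 35116 RefSeq windows of the same length. CAGAC was in 6 of 13 windows, against 36.9% of all, and CCAAT in 5 of 13, against 31.4% of all. Such matches are descriptions of letters and not binding sites, and a window without a match says only that the letters are absent from it.

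Levels per transcript length set the 9 genes in an order. ID1 had the highest TPM, at 190 to 301 over the 14 libraries with a median of 243. ID3 followed at 62.9 to 85.4 TPM (median 67.3) and ID2 at 40.5 to 61.9 TPM (median 46.8). These 3 ranges did not overlap. BMP4 lay at 14.2 to 51.9 TPM (median 27.2), MSX1 at 7.57 to 20.6 TPM (median 14.2) and MSX2 at 3.47 to 14.2 TPM (median 5.55). SMAD7 lay at 1.98 to 3.66 TPM (median 3.0), BAMBI at 1.14 to 4.08 TPM (median 2.29) and SMAD6 at 0.59 to 1.68 TPM (median 0.87). From ID2 downwards, each gene's range overlapped that of the next gene in the order. The ligand gene was thus at a moderate level, and the inhibitor genes were the least abundant of the 9.

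The first question was whether the SMAD targets move with BMP4 and MSX1 when p53 is stabilised. BMP4 and MSX1 were lower with Nutlin in both arms. The estimates for MSX2, ID2, SMAD6, SMAD7 and BAMBI were also below 0 in both arms, though SMAD7 was near 0 with 5-Ph-IAA present (-0.066). The estimate for ID1 was above 0 in both arms, at 0.28 with Nutlin alone and 0.053 with 5-Ph-IAA present. That for ID3 was near 0. None of the 7 other genes passed an adjusted p of 0.05 in edgeR's quasi-likelihood test in either arm or averaged over the arms. Their effects with Nutlin averaged over both arms ran from -0.49 to 0.17 on the log2 scale, with 6 of 7 estimates below 0 and a median of -0.37, against a median of -0.0017 over all 17251 genes tested.

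**Figure D1:**
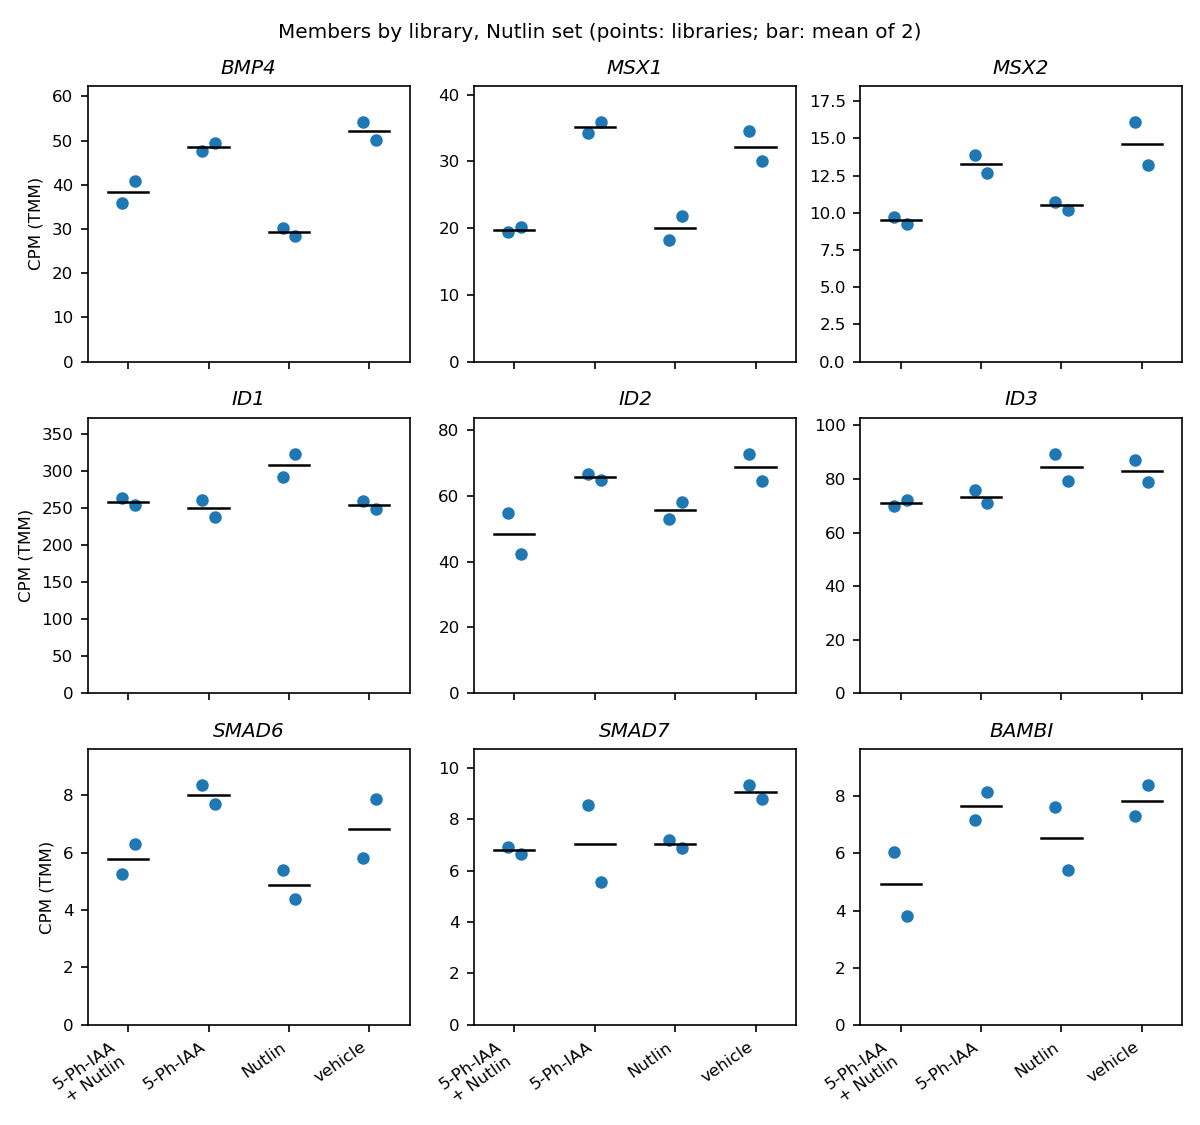
Level of each of the 9 genes in the 8 libraries of the Nutlin set, in CPM after TMM scaling (y axis, from 0) by group (x axis), with 1 point per library and a bar at the mean of 2. BMP4 at 28.3 and 30.2 CPM and MSX1 at 18.2 and 21.8 CPM in Nutlin libraries lie below both vehicle libraries, whereas ID1 at 292 and 323 CPM lies above them.

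BMP4 (ENSG00000125378.16, chr14:53949736-53956891, minus strand) encodes the secreted ligand. It had 30.2 and 28.3 CPM in Nutlin libraries against 54.2 and 50.2 CPM in vehicle libraries, a log2 difference of -0.84 (SE 0.11), or 0.56 times the vehicle level. In the presence of 5-Ph-IAA it had 35.8 and 40.8 CPM with Nutlin against 47.6 and 49.5 CPM without, a log2 difference of -0.34 (SE 0.11), or 0.79 times. Both Nutlin groups lay below their references without overlap, and the difference was smaller with 5-Ph-IAA, by 0.50 on the log2 scale (SE 0.15). That gap between the arms is described and not tested, since BMP4 was chosen on its Nutlin values. BMP4 had a whole-number count in only 2 of 14 libraries, so RSEM shared some of its reads with other features. The other 8 genes had whole counts in all 14.

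MSX1 (ENSG00000163132.8, chr4:4859665-4863936, plus strand) encodes a homeobox repressor of differentiation that BMP4 is known to induce in developing mouse tissues. It had 18.2 and 21.8 CPM in Nutlin libraries against 34.5 and 30 CPM in vehicle libraries, a log2 difference of -0.68 (SE 0.13), or 0.623 times. In the presence of 5-Ph-IAA it had 19.4 and 20.1 CPM with Nutlin against 34.3 and 35.9 CPM without, a log2 difference of -0.83 (SE 0.13), or 0.563 times. All 4 Nutlin-treated libraries lay below all 4 libraries without Nutlin. The difference between the arms was -0.14 (SE 0.18), smaller than its error.

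MSX2 (ENSG00000120149.9, chr5:174724582-174730896, plus strand), the paralog of MSX1, had 10.7 and 10.2 CPM in Nutlin libraries against 16.1 and 13.2 CPM in vehicle libraries. With 5-Ph-IAA it had 9.7 and 9.26 CPM with Nutlin against 13.9 and 12.7 CPM without. As for MSX1, all 4 libraries with Nutlin were below all 4 without. The log2 difference was -0.49 in each arm (SE 0.15 each, adjusted p 0.305 for Nutlin alone and 0.426 with 5-Ph-IAA), or 0.713 and 0.712 times. Averaged over the arms it was -0.49 (SE 0.11, unadjusted p 0.00117, adjusted p 0.0671), which missed the threshold. Over the alternative fits this adjusted p ran from 0.0103, without replicate 1 of Nutlin, to 0.281, and it was 0.0146 without replicate 2 of Nutlin.

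ID1 (ENSG00000125968.10, chr20:31605289-31606510, plus strand) encodes the most abundant of the 3 ID proteins at the RNA level here. It had 292 and 323 CPM in Nutlin libraries against 259 and 248 CPM in vehicle libraries, a log2 difference of 0.28 (SE 0.093, adjusted p 0.335). With 5-Ph-IAA it had 263 and 254 CPM with Nutlin against 260 and 237 CPM without, groups that overlapped, at 0.053 (SE 0.093, adjusted p 0.952). Without replicate 1 of Nutlin the first value became 0.35 with an adjusted p of 0.00696, and the averaged value 0.20 with an adjusted p of 0.017. Over the alternative fits these adjusted p-values ran from 0.00696 to 0.978 and from 0.017 to 0.725. The difference between the arms was -0.23 (SE 0.13, adjusted p 0.989). In TPM ID1 was higher with Nutlin without overlap in both arms. It had 243 and 243 TPM with Nutlin alone against 190 and 218 TPM in vehicle. The combination had 218 and 229 TPM against 212 and 200 TPM in 5-Ph-IAA.

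ID2 (ENSG00000115738.10, chr2:8682056-8684461, plus strand) had 52.8 and 58.2 CPM in Nutlin libraries against 72.8 and 64.4 CPM in vehicle libraries, at -0.31 (SE 0.13, adjusted p 0.446). With 5-Ph-IAA it had 54.8 and 42.2 CPM with Nutlin against 66.7 and 64.8 CPM without, at -0.44 (SE 0.13, adjusted p 0.385). Neither pair of groups overlapped. The averaged effect was -0.37 (SE 0.093, unadjusted p 0.00247, adjusted p 0.102), or 0.772 times the level without Nutlin. This gene sat close to the threshold. DESeq2 gave the averaged effect as -0.38 with an adjusted p of 0.0365, and the edgeR fit without replicate 1 of Nutlin gave -0.34 with 0.0176, and that without replicate 2 gave -0.41 with 0.00594. The range of this adjusted p over the alternative fits was 0.00338 to 0.364. The antisense gene ID2-AS1, which the counting could mix with ID2 since its strand setting is not given in the sources used here, stood at 0.18 to 2.19 TPM, far below ID2. ID3 (ENSG00000117318.9, chr1:23557926-23559501, minus strand) had 89.5 and 79.1 CPM in Nutlin libraries against 87 and 78.7 CPM in vehicle libraries, and 70 and 72.3 CPM in the combination against 75.7 and 70.9 CPM in 5-Ph-IAA. Both pairs of groups overlapped, and the averaged effect was -0.0096, with a 95% interval from -0.17 to 0.15. None of the 3 ID genes passed in edgeR as reported here, and the estimates were not tested against each other.

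Among the inhibitors, SMAD6 (ENSG00000137834.15, chr15:66702236-66782849, plus strand), an inhibitory SMAD, had 5.38 and 4.38 CPM in Nutlin libraries against 5.8 and 7.87 CPM in vehicle libraries. With 5-Ph-IAA it had 5.27 and 6.29 CPM with Nutlin against 8.35 and 7.7 CPM without. In CPM the groups did not overlap in either arm, but in TPM they overlapped in both. The averaged log2 effect was -0.48 (SE 0.16, adjusted p 0.215), or 0.717 times. SMAD7 (ENSG00000101665.10, chr18:48919853-48950965, minus strand), the inhibitory SMAD shared with the TGF-beta pathway, had 7.18 and 6.88 CPM in Nutlin libraries against 9.32 and 8.77 CPM in vehicle libraries. In the combination it had 6.9 and 6.65 CPM against 8.53 and 5.56 CPM in 5-Ph-IAA. It was lower without overlap for Nutlin alone, at -0.37 (SE 0.21, adjusted p 0.574), and overlapped with 5-Ph-IAA present, at -0.066 (SE 0.21, adjusted p 0.98).

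BAMBI (ENSG00000095739.11, chr10:28677521-28682932, plus strand), a decoy receptor without a kinase domain, had 7.64 and 5.42 CPM in Nutlin libraries against 7.3 and 8.39 CPM in vehicle libraries, at -0.27 (SE 0.25, adjusted p 0.75). In the combination it had 6.05 and 3.81 CPM against 7.18 and 8.15 CPM in 5-Ph-IAA, at -0.64 (SE 0.26, adjusted p 0.58). The groups overlapped for Nutlin alone and not with 5-Ph-IAA. Averaged, the effect was -0.45 (SE 0.18, adjusted p 0.306), and without replicate 1 of Nutlin it was -0.58 with an adjusted p of 0.0432. SMAD6 likewise passed only without that library, at -0.55 with an adjusted p of 0.0412. These were the lowest adjusted p-values among the alternative fits, which reached 0.665 for BAMBI and 0.588 for SMAD6. SMAD6, SMAD7 and BAMBI rested on 16 to 278 counts per library, which leaves wide errors.

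**Figure D2:**
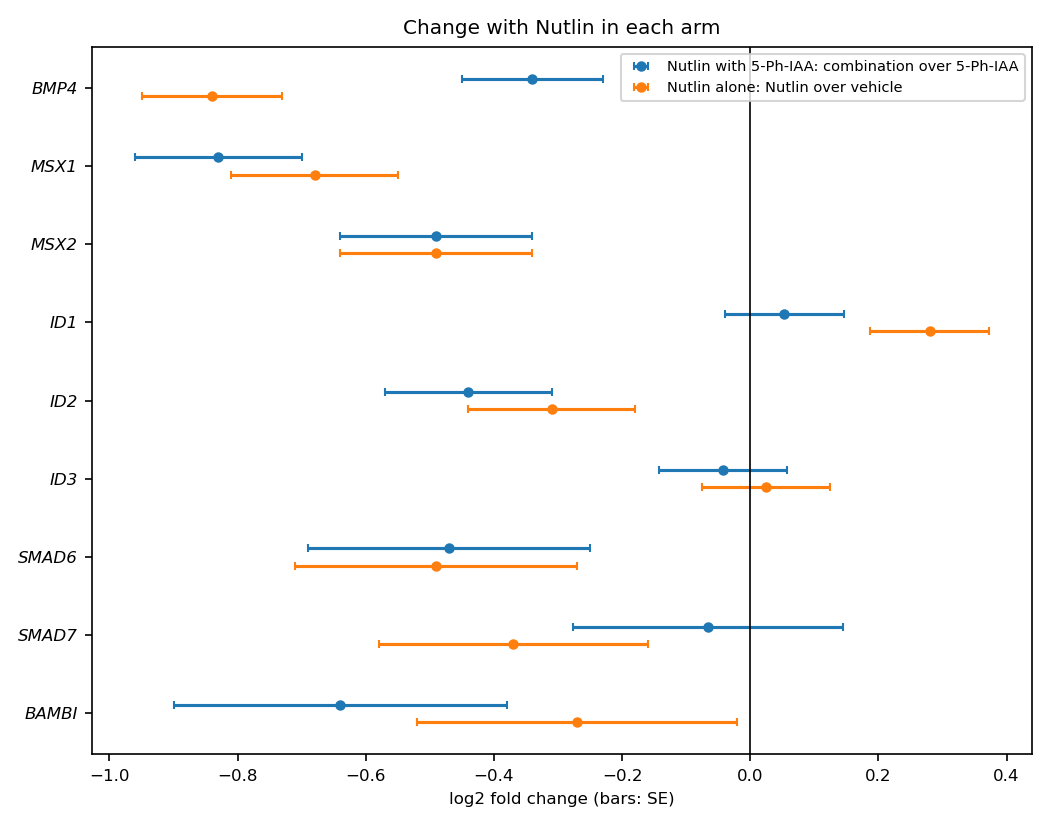
Log2 fold change with Nutlin (x axis) for each of the 9 genes, with the combination over 5-Ph-IAA above and Nutlin over vehicle below within each gene, and bars of 1 SE. BMP4 and MSX1, chosen on these values, run from -0.84 to -0.34, MSX2 sits at -0.49 in both arms, and ID1 is the only gene whose bar lies wholly above 0 in an arm.

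Counted together, the 7 other genes gave 0 calls in edgeR for Nutlin alone, where 0.464% of all genes passed, 0 with 5-Ph-IAA present, where 0.388% passed, and 0 averaged, where 1.44% passed. Without adjustment, 3, 3 and 5 of 7 had a p under 0.05, against 10.8%, 7.61% and 13.4% of all genes. By DESeq2 the calls were 0, 0 and 1 of 7, the 1 being ID2. For Nutlin alone 4 of 7 lay below vehicle without overlap (MSX2, ID2, SMAD6 and SMAD7), against 17.8% of all genes, and ID1 lay above it, against 18.3%. With 5-Ph-IAA present 4 of 7 were lower without overlap (MSX2, ID2, SMAD6 and BAMBI), against 23.3%, and none was higher, against 23.1%. In both arms at once MSX2, ID2 and SMAD6, 3 of 7, were lower without overlap, against 6.63% of all genes, and 0 of 7 were higher, against 6.78%. These counts are in CPM. In TPM SMAD6 overlapped in both arms, and ID1 was higher without overlap in both arms. The interaction of 5-Ph-IAA and Nutlin gave 0 calls among the 7 and 0 among all genes in edgeR, in each case 0% of those tested. At an unadjusted p under 0.05 it gave 0 of the 7 and 623 of all genes (3.61%). DESeq2 called 0 of the 7 and 1 gene in all.

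The rest of the pathway was measured by lists from general knowledge. For Nutlin averaged over both arms, 4 of 13 other BMP ligands were expressed highly enough to be tested and 0 passed. BMP8B and BMP7, the most abundant of them, stood at -0.20 (SE 0.12) and -0.11 (SE 0.13) on the log2 scale. Of 10 tested receptors and co-receptors 0 passed, with the type I receptor BMPR1A at -0.057 (SE 0.07) and the type II receptor ACVR2B at -0.17 (SE 0.083). Of 15 tested signal transducers and their regulators 0 passed, with the ubiquitin ligase SMURF2 at -0.18 (SE 0.064, adjusted p 0.256) and the receptor SMAD SMAD5 at -0.12 (SE 0.078). Of 8 tested secreted antagonists and modulators 0 passed, with NBL1 at 0.031 (SE 0.09) and CRIM1 at -0.023 (SE 0.064). Of 13 further BMP-SMAD targets 0 passed, with JUNB at -0.10 (SE 0.079) and UNC5B at -0.054 (SE 0.11). These 5 lists held 1, 1, 5, 0 and 2 genes with an unadjusted p under 0.05, against 13.4% of all genes, and 0 passed in each by DESeq2. Among all genes 1.44% passed in edgeR. With either Nutlin library left out, some transducers and regulators passed, all lower, but calls also rose many times over among all genes. The median log2 effects of the 5 lists were -0.16, -0.061, -0.14, -0.03 and -0.18, all closer to 0 than the -0.37 of the 7 members.

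Single genes from the lists of neighbouring pathways passed in the same comparison, which does not show that a pathway as a whole responded. BHLHE40, a transcriptional repressor gene from the list of TGF-beta-SMAD targets, rose with Nutlin by 0.90 (SE 0.13, adjusted p 0.00772). Its call was lost without replicate 2 of vehicle, replicate 2 of 5-Ph-IAA or either combination library (adjusted p up to 0.0738). The median of the 12 tested genes of that list was 0.081. AXIN2, a negative-feedback gene of the Wnt pathway, fell, with a log2 difference of -1.68 (SE 0.17, adjusted p 0.000702). It was the 1 call in edgeR among 10 tested Wnt targets, against 1.44% of all genes called in either direction. The median of these 10 targets was -0.20. DESeq2 called 2 of these, AXIN2 and CCND1. AXIN2 had 2.34 and 2.01 CPM in Nutlin libraries against 7.69 and 8.32 CPM in vehicle libraries, and 2.47 and 3.39 CPM in the combination against 7.55 and 8.92 CPM in 5-Ph-IAA. Its averaged edgeR call held in all 13 alternative fits. Of 24 p53 targets 12 rose and 0 fell in edgeR, against 0.956% of all genes called higher, with a median of 0.42. With 1 library left out the number that rose ran from 7, without replicate 1 of the combination, to 17, without replicate 1 of Nutlin. The 4 with the smallest p were GDF15 (2.29, SE 0.091, adjusted p 5.74e-07), SESN2 (2.12, SE 0.085, adjusted p 5.74e-07), CDKN1A (1.27, SE 0.062, adjusted p 3e-06) and GADD45A (1.06, SE 0.084, adjusted p 0.000132).

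**Figure D3:**
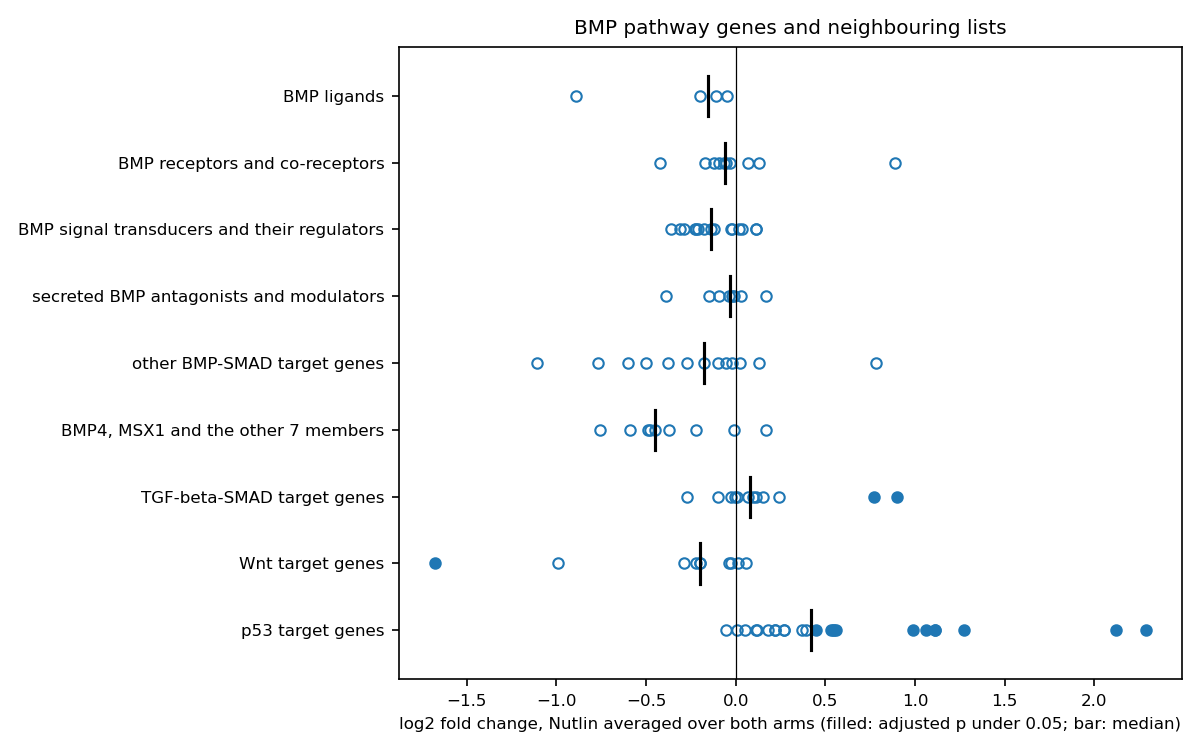
Log2 fold change with Nutlin averaged over both arms (x axis) for the tested genes of 9 lists (rows), with filled points for an adjusted p under 0.05 and a bar at each list's median. No point in the 6 BMP rows is filled, where BMP4 and MSX1 are drawn open because they were not tested, while 12 of 24 p53 targets are filled and all lie above 0. The median drawn for the 9 genes includes BMP4 and MSX1, which were chosen for low values.

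The genes whose level followed BMP4 and MSX1 most closely over the 8 libraries of the Nutlin set were found among 12858 genes by the correlation of log2 CPM. Among the 5 closest to BMP4 were DDX17 (Pearson r 0.981), PHLPP2 (0.979), ZC3HAV1 (0.979) and NUP153 (0.974). For MSX1 they were CDC25A (0.994), TAF5L (0.981), KPNA2 (0.979), POP1 (0.978) and TNFRSF10D (0.978). The 8 points share 4 treatment groups, so the correlations are a description and share the differences between those groups. PHLPP2, for example, had log2 differences of -0.62 (SE 0.098) with Nutlin alone and -0.31 (SE 0.097) with 5-Ph-IAA present, and CDC25A had -0.57 (SE 0.10) and -0.65 (SE 0.10). Over the 6 time-course libraries, which took no part in that choice, the correlations with BMP4 ran from -0.697 for DDX17 to 0.648 for ZC3HAV1, and those with MSX1 from -0.297 for KPNA2 to 0.798 for TNFRSF10D. Among the 9 genes themselves, BMP4 and MSX1, both chosen for lower values with Nutlin, correlated at 0.85 in the Nutlin set and at 0.4 in the time-course set. MSX1 and MSX2 correlated at 0.89 and -0.82, BMP4 and ID1 at -0.85 and 0.46, and MSX2 and ID2 at 0.9 and 0.61. The remaining pairs are not listed.

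The next question was how the 9 genes behave when 5-Ph-IAA is given without Nutlin. SAF-A protein was not measured in these libraries. BMP4 was the only one of the 9 to pass, and it rose at 12 h of 5-Ph-IAA, to 1.47 times the vehicle level. Across vehicle, 3 h and 12 h it had 59.4 and 59.2, then 71.5 and 81.1, then 77.7 and 101 CPM. Both 3 h libraries lay above both vehicle libraries, and so did both 12 h libraries. The log2 difference was 0.55 at 12 h (SE 0.12, adjusted p 0.0122) and 0.36 at 3 h (SE 0.12, unadjusted p 0.00843, adjusted p 0.677). The 3 h difference passed with no low-count filter, at 0.38 with an adjusted p of 0.0289, and in no other alternative fit, where the adjusted p ran up to 1. The 12 h call held in every alternative run, with an adjusted p of 1.9e-05 to 0.0496. The highest of these came without the shallow replicate 2 of 12 h, where the difference was 0.39, and without replicate 1 of 12 h it was 0.78.

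**Figure D4:**
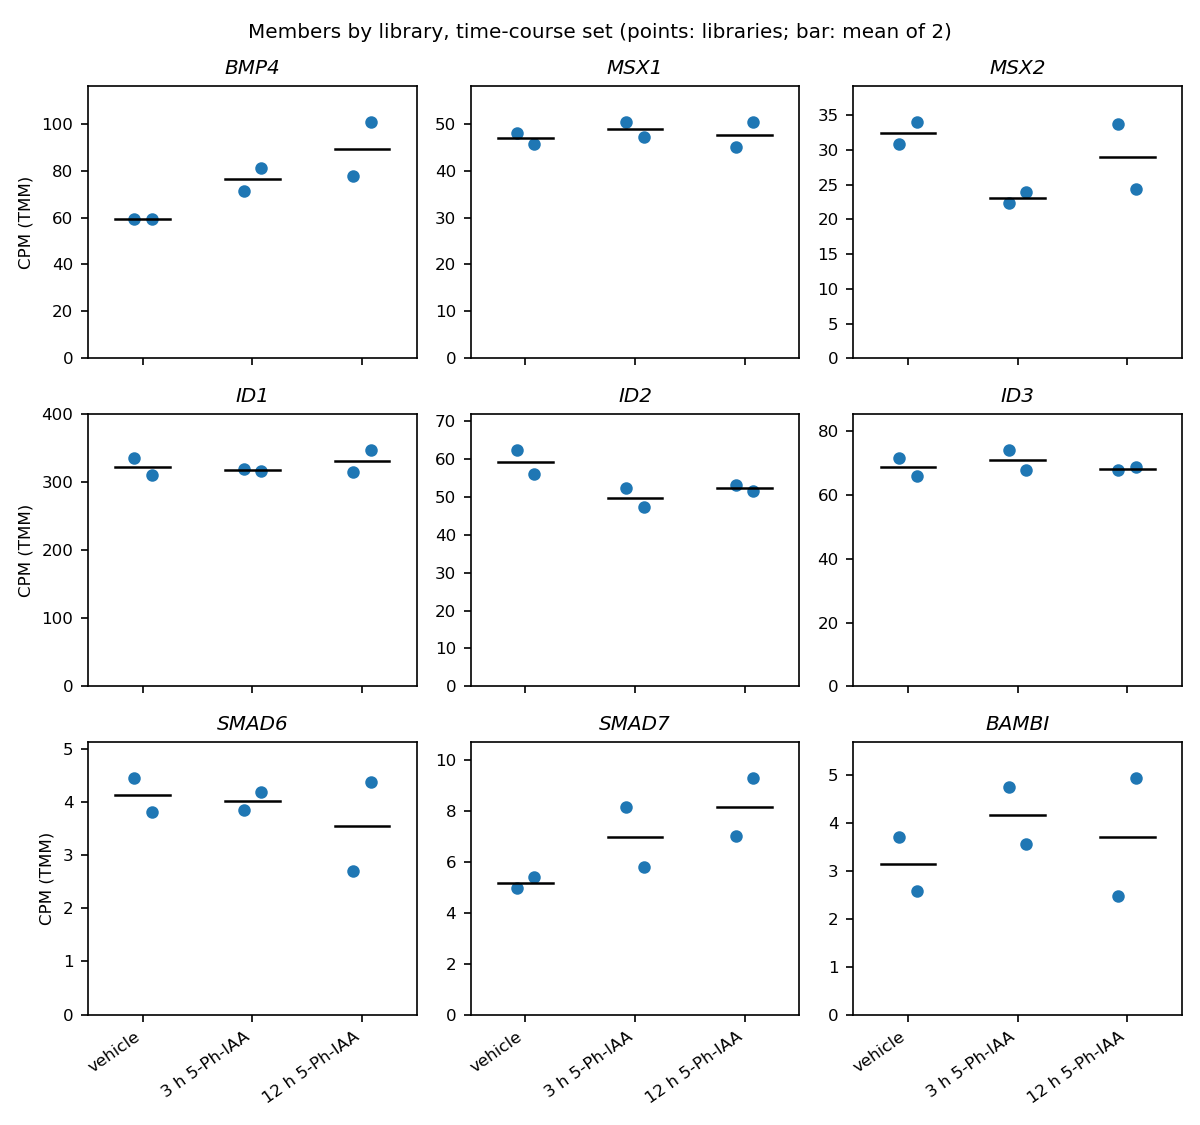
Level of each of the 9 genes in the 6 libraries of the time-course set, in CPM after TMM scaling (y axis, from 0) by time of 5-Ph-IAA (x axis), with 1 point per library and a bar at the mean of 2. BMP4 lies above its vehicle libraries at 3 h without passing the test and at 12 h passing it, the MSX1, ID1 and ID3 points of each time overlap those of vehicle, and SMAD6 and BAMBI scatter at under 5 CPM.

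MSX1 had 48 and 45.8 CPM in vehicle, 50.5 and 47.3 at 3 h and 45.1 and 50.4 at 12 h. These groups overlapped, and the 12 h difference was 0.0035 (SE 0.11, adjusted p 0.993), with a 95% interval from -0.23 to 0.24. MSX2 had 30.9 and 34.1 CPM in vehicle, 22.3 and 23.9 at 3 h and 33.7 and 24.4 at 12 h. It was lower without overlap at 3 h, by a log2 difference of -0.49 (SE 0.14, unadjusted p 0.00437, adjusted p 0.544), and overlapped vehicle at 12 h, at -0.098 (SE 0.15, adjusted p 0.762).

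ID1 had 336 and 311 CPM in vehicle, 319 and 316 at 3 h and 315 and 348 at 12 h. ID3 had 71.6 and 65.9 CPM in vehicle, 74.1 and 67.9 at 3 h and 67.6 and 68.8 at 12 h. In CPM every pair of groups overlapped for both genes, with 12 h differences of 0.03 (95% interval -0.13 to 0.19) for ID1 and -0.014 (-0.23 to 0.20) for ID3. In TPM ID1 was lower without overlap at 3 h (253 and 260 against 271 and 266 in vehicle). ID3 was higher without overlap at 12 h in TPM (67.2 and 67.0 against 66.6 and 62.9 in vehicle). ID2 had 62.4 and 56 CPM in vehicle, 52.2 and 47.4 at 3 h and 53.1 and 51.5 at 12 h. In CPM it was lower without overlap at both times. Neither -0.25 at 3 h (SE 0.10, adjusted p 0.753) nor -0.17 at 12 h (SE 0.11, adjusted p 0.361) passed. In TPM ID2 was lower without overlap at 3 h only. At 12 h it had 49.1 and 46.6 TPM against 46.7 and 44.2 TPM in vehicle, groups that overlapped, with a higher mean at 12 h.

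SMAD7 had 4.99 and 5.4 CPM in vehicle, 8.15 and 5.81 at 3 h and 7.01 and 9.31 at 12 h. In CPM it lay above vehicle without overlap at both times, like BMP4, but in TPM it overlapped vehicle at both times. The log2 differences were 0.43 at 3 h (SE 0.26, adjusted p 0.833) and 0.60 at 12 h (SE 0.27, unadjusted p 0.0491, adjusted p 0.195). SMAD6 had 4.45 and 3.81 CPM in vehicle, 3.84 and 4.18 at 3 h and 2.7 and 4.38 at 12 h. BAMBI had 3.71 and 2.57 CPM in vehicle, 4.75 and 3.55 at 3 h and 2.47 and 4.93 at 12 h. Both of these overlapped vehicle at both times. The second 12 h library held 16 SMAD6 counts (exact Poisson 95% interval 9.15 to 26.0), 34 SMAD7 counts (23.5 to 47.5) and 18 BAMBI counts (10.7 to 28.4). Such intervals cover counting error only, since the reads carry no molecular identifiers as far as the labels say.

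At 12 h the 1 call among 9 genes, or BMP4 alone, stood beside 11.4% of all genes called in either direction and 3.39% called higher. At an unadjusted p below 0.05 there were 2 of 9, BMP4 and SMAD7, beside 25.3% of all genes. Without overlap in CPM, BMP4 and SMAD7 were higher at 12 h, 2 of 9 against 22.9% of all genes, and ID2 was lower, 1 of 9 against 27.9%. In TPM SMAD7 and ID2 overlapped vehicle at 12 h, and ID3 was higher without overlap. At 3 h edgeR called 0 of 9 against 0.0682% of all genes, and 3 of 9 (BMP4, MSX2 and ID2) had an unadjusted p under 0.05, against 6.45% of all genes. DESeq2 also gave no call among the 9 at 3 h. Without overlap in CPM, 2 of 9 were higher at 3 h (BMP4 and SMAD7) against 18.7%, and 2 of 9 lower (MSX2 and ID2) against 20.1%. The median log2 difference of the 9 was 0.0035 at 12 h against -0.0031 for all genes, and 0.047 at 3 h against -0.013.

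Several upstream genes of the pathway fell at 12 h of 5-Ph-IAA. BMPR1A, the type I receptor, had 87.8 and 90.4 CPM in vehicle, 74.9 and 80.4 at 3 h and 69.2 and 57.8 at 12 h, and fell at 12 h by 0.46 on the log2 scale (SE 0.10, adjusted p 0.0133), 1 of 10 tested receptors. Of 15 transducers and regulators 4 fell and 0 rose. These were LEMD3, an inner nuclear membrane protein that binds SMADs (-0.49, SE 0.10, adjusted p 0.00779), SKIL, a SMAD corepressor (-0.63, SE 0.14, adjusted p 0.015), FKBP1A, which holds type I receptors inactive (-0.37, SE 0.092, adjusted p 0.0232), and SMURF2 (-0.24, SE 0.064, adjusted p 0.0287). The BMPR1A call held in all 12 alternative fits, with an adjusted p of up to 0.0478. Without replicate 1 of 12 h, which leaves the shallow library alone, 0 of the 15 passed, although LEMD3 stood at -0.39, SKIL at -0.79, FKBP1A at -0.29 and SMURF2 at -0.25 (adjusted p 0.138, 0.0534, 0.217 and 0.124). Without replicate 2 of vehicle 1 of the 15 passed, LEMD3, and SKIL, FKBP1A and SMURF2 stood at -0.56, -0.27 and -0.21 (adjusted p 0.0542, 0.113 and 0.107). With only the compared groups fitted 2 passed. SMURF2 also did not pass without replicate 2 of 12 h (-0.23, adjusted p 0.0802). Of 8 secreted modulators 1 fell, TWSG1, which binds BMP ligands (-0.48, SE 0.11, adjusted p 0.013). Without replicate 1 of 12 h it stood at -0.46 with an adjusted p of 0.12. Of 5 other ligands and 15 further BMP targets 0 passed in edgeR, 0 at an unadjusted p under 0.05 and 0 in DESeq2. With 7.97% of all genes called lower at 12 h, 1 of 10, 4 of 15 and 1 of 8 are counts beside that share, and these lists were not tested as sets.

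At 12 h LTBP3, a latent TGF-beta binding protein gene, rose by 0.72 (SE 0.15, adjusted p 0.00825) and SKIL fell. These were 2 of 13 TGF-beta-SMAD targets, against 11.4% of all genes called in either direction. Wnt targets gave 0 of 11 in edgeR and 1 in DESeq2 (CCND1). At an unadjusted p under 0.05 there were 3 of 11, against 25.3% of all genes. Of 24 p53 targets 7 passed in edgeR, 6 lower and 1 higher, against the 7.97% and 3.39% of all genes given above. Without replicate 1 of 12 h, and likewise without replicate 2 of vehicle, 3 were lower and 0 higher. With only the compared groups fitted 4 were lower and 0 higher. The 4 with the smallest p were CCNG1 (-0.89, SE 0.072, adjusted p 0.000171), RRM2B (-0.63, SE 0.086, adjusted p 0.000988), MDM2 (-0.39, SE 0.066, adjusted p 0.00291) and SESN1 (-0.63, SE 0.13, adjusted p 0.01). SESN1 did not pass without replicate 1 of 12 h or without replicate 2 of vehicle (adjusted p up to 0.104). At 3 h the BMP lists gave 0 calls, while THBS1, which encodes an activator of latent TGF-beta (1.03, SE 0.098, adjusted p 0.0017), rose, as did the Wnt antagonist gene DKK1 (0.50, SE 0.062, adjusted p 0.00889). In edgeR 2 of 13 TGF-beta-SMAD targets and 1 of 11 Wnt targets passed at 3 h, against 0.0682% of all genes. The medians of these lists were 0.45 and -0.26, and 7 of the 11 Wnt estimates were below 0, unlike DKK1. DESeq2, but not edgeR, called DKK1 as differing between the sets at 3 h. DKK1 did not pass with all 14 libraries in 1 fit (adjusted p 0.0827).

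The Nutlin set holds a second 3 h comparison of 5-Ph-IAA with vehicle. All 4 of its libraries are ones that BMP4 and MSX1 were chosen against, so these 2 genes are described here with no test. BMP4 had 47.6 and 49.5 CPM in 5-Ph-IAA libraries against 54.2 and 50.2 CPM in vehicle libraries, a log2 difference of -0.11 (SE 0.11) with no overlap, and MSX1 overlapped, at 0.12 (SE 0.12). SMAD7 had 8.53 and 5.56 CPM against 9.32 and 8.77 CPM, at -0.35 (SE 0.21, adjusted p 1). ID3 had 75.7 and 70.9 CPM against 87 and 78.7 CPM, at -0.18 (SE 0.10, adjusted p 1). SMAD7 and ID3, 2 of the other 7, were lower without overlap, against 14.8% of all genes, and none of the 7 was higher, against 14.7%. The remaining 5 overlapped, with differences from -0.14 for MSX2 to 0.24 for SMAD6. edgeR called 0 of 7 here and 0 of 17251 genes in all (0%), and at an unadjusted p below 0.05 it gave 0 of 7 and 245 genes (1.42%). DESeq2 called 0 of 7 and 1 gene in all.

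In CPM, BMP4 and SMAD7 thus lay above vehicle in both 3 h libraries of the time-course set. In both 5-Ph-IAA libraries of the Nutlin set they lay below it. In TPM the SMAD7 groups overlapped in both sets, and the BMP4 groups overlapped in the Nutlin set. Mean SMAD7 there was 3.33 TPM with 5-Ph-IAA and 3.32 TPM in vehicle. The difference between the sets was taken as the effect in the Nutlin set minus that in the time-course set. It was -0.48 for BMP4 (SE 0.12) and 0.046 for MSX1 (SE 0.14), both given as a description because the libraries of the Nutlin set used here took part in their choice. It was -0.79 for SMAD7 (SE 0.33, unadjusted p 0.0329, adjusted p 0.752). For MSX2 it was 0.34 (SE 0.18, adjusted p 0.805). None of the 7 tested passed in edgeR, where 0.0636% of all genes did, and 1 of 7, SMAD7, had an unadjusted p under 0.05, against 6.35% of all genes. DESeq2 also gave 0 of 7. The sets also differ in depth, with 13034551 to 16402858 counts in the 4 Nutlin-set libraries used here and 33493147 to 35140464 in the 4 of the time-course set, and the part of depth or of anything else that differs between the sets was not tested.

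**Figure D5:**
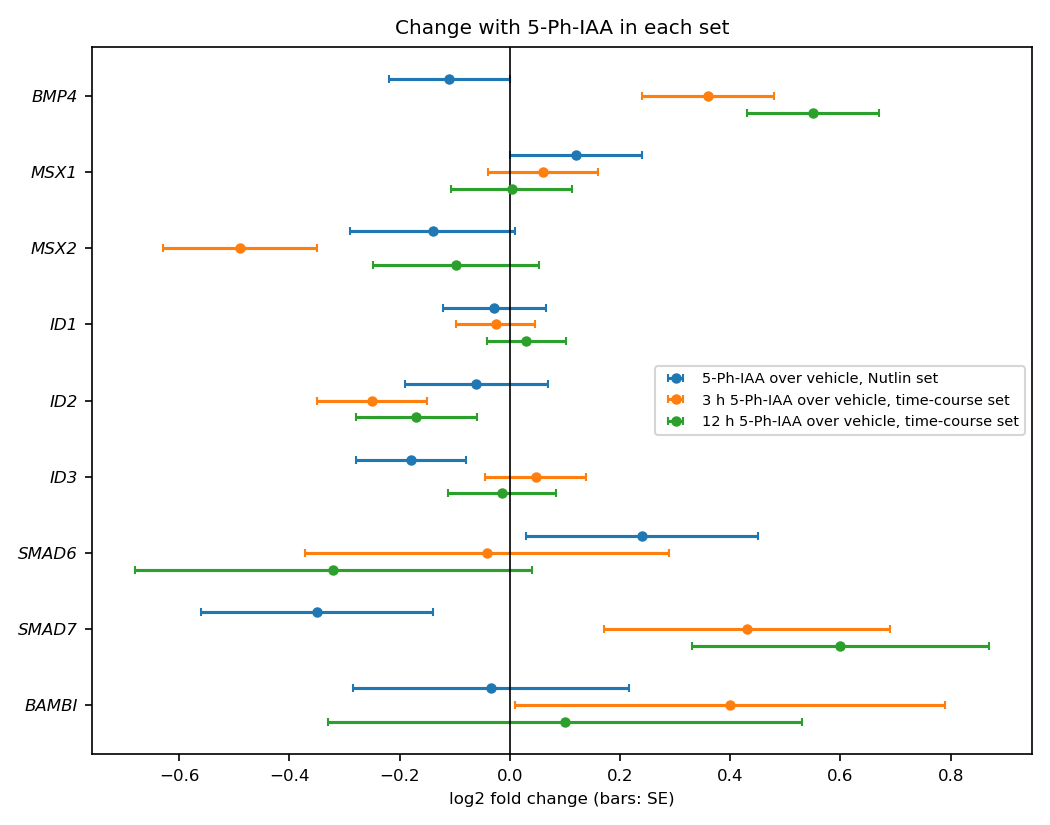
Log2 fold change with 5-Ph-IAA over vehicle (x axis) for each of the 9 genes in the Nutlin set, at 3 h of the time-course set and at 12 h of the time-course set (top to bottom within each gene), with bars of 1 SE. BMP4 runs -0.11, 0.36 and 0.55 and SMAD7 -0.35, 0.43 and 0.60, with the Nutlin set on the other side of 0 from the time-course set for both, whereas ID1 stays within 0.03 of 0 throughout.

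Per transcript length, BMP4 was highest at 12 h of 5-Ph-IAA, at 42.7 ± 13.0 TPM (SD, n = 2), and lowest with Nutlin alone, at 14.6 ± 0.615 TPM. Between these lay 3 h of 5-Ph-IAA (35.3 ± 5.25), the time-course vehicle (29.2 ± 1.1), the Nutlin-set vehicle (26.1 ± 3.41), 5-Ph-IAA of the Nutlin set (25.7 ± 0.438) and the combination (20.6 ± 0.863). Neighbours in this order overlapped among the first pair (31.5 and 39.0 TPM at 3 h, 33.5 and 51.9 TPM at 12 h), the pair of vehicle groups (28.4 and 30.0 TPM in the time-course set, 23.7 and 28.5 TPM in the Nutlin set), and the Nutlin set's 5-Ph-IAA (25.4 and 26.0 TPM) and vehicle. The other neighbours did not overlap. MSX1 was highest in the time-course set, at 17.8 to 20.6 TPM, lower in the Nutlin-set groups without Nutlin, at 14.2 ± 1.21 TPM in 5-Ph-IAA and 12.5 ± 0.205 TPM in vehicle, and lowest with Nutlin, at 7.57 to 8.59 TPM. In all of these bulk libraries, a lower level could mean fewer cells that express a gene or less RNA per cell, which cannot be told apart.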

How the data were processed

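The authors deposited RSEM gene tables that, per the file headers, hold expected counts and TPM for each of 14 libraries. The submitters' processing notes name STAR 2.7.10b, RSEM, DESeq2 1.48.1 and hg38 (GRCh38), without roles. The annotation release and strand setting are not given in the sources used here. Per the labels' protocols, the kit was a stranded total-RNA kit.

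Expected counts were rounded, and each set was fitted with edgeR 4.0.16 in R 4.3.3 (TMM, quasi-likelihood F tests, 1 coefficient per group). Genes were kept by filterByExpr (minimum count 10, minimum total 15), which left 17251 genes for the Nutlin set, 19049 for the time course and 18873 for the difference between sets. Two-sided p-values were adjusted by the Benjamini-Hochberg method over all tested genes, with a threshold of 0.05. CPM is after TMM within a set, and log2 CPM used a prior count of 2. Overlap of groups was judged on CPM unless TPM is named. SE is the log2 difference divided by the square root of F. The TPM values are those the authors deposited. The scripts were tested on simulated data. Symbols and RefSeq coordinates are on GRCh38.p14.

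The members, gene lists and named genes were chosen with earlier results of these data known. Named genes are the members, HNRNPU, MDM2 and CDKN1A, up to 4 passing genes per list by smallest p (or the 2 most abundant where none passed), and the 5 genes most correlated with BMP4 and with MSX1. A few genes that this rule names are not reported here. Alternatives were DESeq2 1.42.0, RLE factors, no low-count filter, a replicate block, only the compared groups, all 14 libraries in 1 fit, each library left out, another prior count (0.5) and CPM in place of TPM.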

Additional observations from a re-analysis of the deposited data

Results flagged for a closer look

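THBS1, which encodes thrombospondin 1, differed between the sets in its response to 3 h of 5-Ph-IAA, and the test of that difference passed. The effect in the Nutlin set minus that in the time-course set was -1.1 on the log2 scale (SE 0.12, adjusted p 0.00524 in edgeR). It passed in 12 of 13 alternative fits and not with all 14 libraries in 1 fit, where the adjusted p was 0.0725. In the time-course set THBS1 had 84.9 and 96.7 CPM at 3 h against 45.1 and 43.7 CPM in vehicle. In the Nutlin set it had 64 and 67.8 CPM with 5-Ph-IAA against 69.6 and 67.5 CPM in vehicle, groups that overlapped. None of the 7 SMAD targets passed the test of a difference between the sets or between the arms.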

How the results depend on the processing

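Of 945 recomputed log2 differences of the 9 genes, over 72 results, 871 kept their direction and their side of the threshold, 0 lost a call, 17 newly passed (among them BMP4 at 3 h with no low-count filter) and 50 changed sign. The sign changes fell in 24 results, whose reported sizes were at most 0.32. The other 7 were shifts of over 1 SD in untested values of BMP4 and MSX1: the differences between arms (to 0.40 for BMP4, -0.26 and -0.003 for MSX1), the differences between sets (-0.57 and -0.39 for BMP4, 0.16 for MSX1) and MSX1 with 5-Ph-IAA in the Nutlin set (0.23). BMP4 at 12 h passed in every alternative.

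Counts of called genes moved more. With DESeq2 they were 54 for 3 h in the time-course set, 158 for Nutlin, 103 for the combination over 5-Ph-IAA, 1 for 5-Ph-IAA in the Nutlin set, 1 for the interaction and 47 for the difference between sets. Reported counts were 13, 80, 67, 0, 0 and 12. With no low-count filter these 6 became 193, 405, 270, 53, 57 and 177, and the averaged Nutlin effect gave 635 in place of 249. With only the compared groups fitted, 12 h gave 1391 in place of 2163, Nutlin 27, the combination 622 and 5-Ph-IAA in the Nutlin set 9. With all 14 libraries in 1 fit the difference between sets gave 3. With 1 library left out, counts ran from 961 to 2446 for 12 h, 23 to 283 for 3 h, 25 to 2131 for Nutlin, 16 to 429 for the combination, 84 to 1977 for the averaged effect, 0 to 1 for 5-Ph-IAA in the Nutlin set, 0 to 1035 for the interaction and 5 to 145 for the difference between sets. The lowest 12 h count came without replicate 1 of 12 h. The highest Nutlin and interaction counts came without replicate 1 of Nutlin (2131 and 1035), and the highest averaged and combination counts without replicate 2 of Nutlin (1977 and 429). The cause was not tested. ID2 in the combination over 5-Ph-IAA passed without either Nutlin library and when only its 2 groups were fitted, where its adjusted p was 0.0157.

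Same-numbered deviations correlated at -0.0888 to 0.047, which gave no sign that replicate numbers pair the samples. The labels do not say whether they do. With the replicate block, 3 h gave 45 calls and the difference between sets 6, while 12 h gave 2489, Nutlin 61, the combination 45 and the averaged effect 189. The block changed no call of the 9 genes.

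Signs changed in these ranges with 1 library left out. At 12 h they were -0.062 to 0.11 for MSX1, -0.40 to 0.048 for MSX2, -0.04 to 0.12 for ID1, -0.071 to 0.064 for ID3, -0.61 to 0.096 for SMAD6 and -0.35 to 0.66 for BAMBI. At 3 h in the time-course set they were -0.073 to 0.05 for ID1, -0.0054 to 0.13 for ID3 and -0.14 to 0.097 for SMAD6. For Nutlin against vehicle ID3 ran from -0.065 to 0.11, and averaged from -0.055 to 0.032. In the combination over 5-Ph-IAA they were -0.018 to 0.12 for ID1, -0.097 to 0.005 for ID3 and -0.34 to 0.28 for SMAD7. For 5-Ph-IAA in the Nutlin set they were -0.27 to 0.014 for MSX2, -0.098 to 0.041 for ID1, -0.14 to 0.031 for ID2 and -0.13 to 0.076 for BAMBI. For the interaction they were -0.16 to 0.12 for MSX2, -0.34 to 0.043 for ID2, -0.15 to 0.02 for ID3 and -0.23 to 0.22 for SMAD6. For the difference between sets they were -0.05 to 0.16 for MSX1 and -0.088 to 0.056 for ID1. Other settings turned ID3 at 12 h (0.0091 with DESeq2, 0.0089 with RLE), MSX1 at 12 h (-0.014 with no filter) and the MSX2 interaction (0.00094 with DESeq2, 0.0012 with RLE, 0.01 with no filter).

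With CPM in place of TPM, 6 of 18 ranks of level moved. The 2 libraries per group and the 16 to 278 counts of SMAD6, SMAD7 and BAMBI limit what could pass.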
